A study of Onthophagus taurus with 66 samples.

Results

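*hedgehog* (*hh*) and *cubitus interruptus* (*ci*) were followed across the developing dorsal head of the bull headed dung beetle *Onthophagus taurus*, as 2 of the 23725 transcripts of the count table: XM_023044715.1 for *hh* and XM_023057592.1, named isoform X3, for *ci*. Both were chosen by identifier. They belong to the genes that the study named among its differentially expressed transcripts of these same samples, so a difference between regions is a description of these animals and not independent evidence. The *hh* locus (LOC111413674) had 1 transcript in the table, while the *ci* locus (LOC111424142) had 3, and the other 2 (XM_023057586.1, named isoform X2, and XM_023057578.1) are described beside the member.

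Heavy pre-pupal larvae of both sexes, 6 males and 5 females, were dissected in the last hours before pupation, and the dorsal head epithelium of each was cut into 6 pieces. These were the left and right lateral posterior (LatP), the medial posterior (MP), the left and right lateral anterior (LatA) and the medial anterior (MA) pieces, and each of the 66 pieces gave 1 polyA RNA library. Males grow a pair of horns from the LatP region, whereas females form a low ridge. No larva was treated, and the comparisons ask how expression differs along the head axes and between horned and hornless heads. Levels are in CPM, the counts of a transcript scaled by library size and by edgeR's TMM factors. Lateral pieces of 1 larva were averaged before the mean ± SD over animals was taken.

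Hedgehog is a secreted signal. In *Drosophila melanogaster*, it binds the receptor Patched, which lifts the block on the membrane protein Smoothened, and cells that receive it keep Cubitus interruptus, a zinc finger transcription factor of the Gli family, in its full-length activating form. In fly imaginal discs, *hh* is transcribed in posterior compartment cells, which express *engrailed*, while *ci* is transcribed in the anterior cells that respond. In *Onthophagus* beetles, Hedgehog signalling has been linked to the growth of horns.

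Library totals ranged from 10807956 to 17048942 counts, and a count of 0 allows up to 3 counts, or 0.118 to 0.323 CPM depending on the library, for counting error only. Of the 66 libraries, 61 were nearest to their own region among the other animals of their sex, by correlation over 500 transcripts. The 5 exceptions were the left and right LatA libraries of female 2 and 3 libraries of male 1. The MA library of male 1 was nearest to LatA (r = 0.32, against 0.03 for MA), and the right and left LatA libraries of male 1 were nearest to MA (r = 0.53 and 0.41). The main results that rest on male 1 are given with and without this animal, or as a range over animals left out in turn.

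Transcripts of *hh* were most abundant in the posterior head of both sexes and close to the limit of detection in the MA region. In males, *hh* averaged 5.27 ± 1.12 CPM in LatP, 7.53 ± 1.97 CPM in MP, 2.07 ± 0.994 CPM in LatA and 0.386 ± 0.860 CPM in MA (SD, n = 6). Without male 1, the means were 2.44 ± 0.432 CPM in LatA and 0.0349 ± 0.0479 CPM in MA (SD, n = 5). In females, it averaged 9.06 ± 1.90 CPM in LatP, 12.3 ± 5.48 CPM in MP, 2.18 ± 0.494 CPM in LatA and 0.113 ± 0.0575 CPM in MA (SD, n = 5). The means had the same order in both sexes, with MP highest and MA lowest. The gap between LatP and MP was smaller than the SD of MP in females and larger than the SD of either region in males, and both lay well above LatA.

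**Figure D1:**
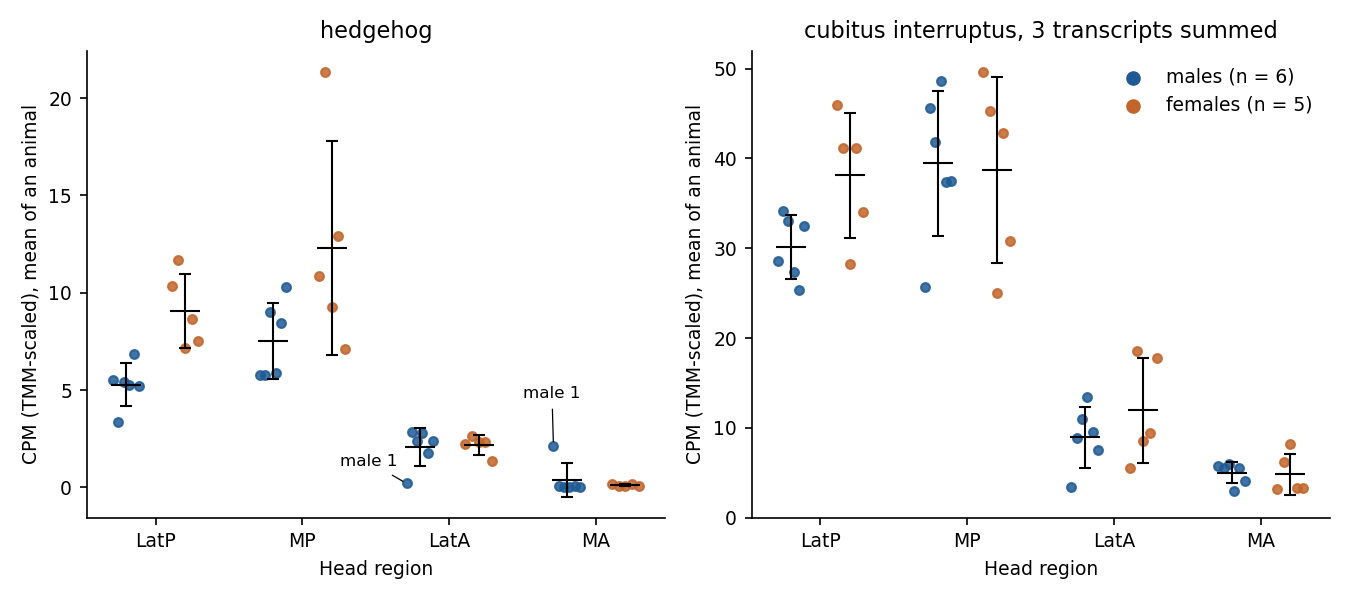
Levels of *hedgehog* (left) and of the 3 summed *cubitus interruptus* transcripts (right) in CPM on a linear axis, by head region, with 1 point for each animal (males blue, n = 6, females orange, n = 5) and black bars for mean ± SD. Posterior regions stand above anterior ones for both genes, and the MA point of male 1 at 2.14 CPM of *hedgehog* lies among the LatA values.

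Lateral pieces were compared first. In males, *hh* ranged from 3.36 to 6.85 CPM over animals in LatP (median 5.34), against 0.201 to 2.84 CPM in LatA (median 2.403). The animals of the regions did not overlap, and LatP was higher in 6 of 6 males. The share of all transcripts without such overlap was not counted, here or in the comparisons below. The fitted difference was a log2 fold change of 1.35 ± 0.39 (SE, edgeR, adjusted p = 0.0377). It did not pass the study's thresholds (adjusted p under 0.001, together with a log2 fold change beyond 2 in either direction). The study set these on DESeq2 results, and here they are set on edgeR results. Without male 1, it was 1.11 (edgeR, adjusted p = 0.00193).

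In females, *hh* stood at 10.3, 11.7, 7.18, 8.65 and 7.50 CPM in LatP, against 2.24, 2.66, 2.31, 2.33 and 1.34 CPM in LatA of females 1 to 5. All 5 females had the higher value in LatP. Here *hh* rose past both thresholds, with a log2 fold change of 2.04 ± 0.23 (SE, edgeR, adjusted p = 1.97e-05). The estimate lay at the fold threshold itself, and without female 1 or female 5 it was 2.00 or 1.95 and no longer called. With left and right pieces summed, it was 2.01 (edgeR, adjusted p = 0.00467), and in DESeq2 it was 1.997. Over all transcripts, calls in favour of LatP made up 0.602% in males and 0.329% in females, and calls in favour of LatA 0.191% and 0.096%. With library totals in place of TMM, calls in females were 75 higher and 5 lower in LatP, against 48 and 14 with TMM, and the median of all transcripts moved by 0.49 on the log2 scale.

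Whether the LatP over LatA change of *hh* differed by sex was tested directly. The male value minus the female one was -0.69 ± 0.47 (SE, edgeR interaction, adjusted p = 0.684), so a call in females alone does not show that the sexes differ. Leaving out each animal in turn gave -0.92 to -0.46 (edgeR interaction, adjusted p of 0.163 to 0.961). Interactions were called at an adjusted p under 0.05 for 1.03% of transcripts.

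The medial pieces held the widest contrast of *hh*. In females, *hh* reached 148, 198, 156, 174 and 121 counts in MP, against 2, 1, 1, 3 and 1 counts in MA of females 1 to 5. Pooled over animals, the level was 99.9 times as high in MP (95% interval 50.5 to 232, exact, counting error only). The fitted log2 fold change was 6.66 ± 0.46 (SE, edgeR, adjusted p = 0.000414), which passed both thresholds. It was the only transcript called higher in MP of females, or 0.00771% of all transcripts, while 3 (0.0231%) were called lower. With library totals, the calls were 1 higher and 1 lower.

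This call sat close to the threshold on p. With the animal as a block, since all pieces of a larva are paired, the log2 fold change was 6.62 and the adjusted p 0.0115 (edgeR). Leaving out each female in turn gave log2 fold changes of 6.28 to 6.92 and adjusted p of 0.00603 to 0.0114 (edgeR), none of them called. The direction was higher in MP in 5 of 5 females.

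In males, *hh* ranged from 61 to 114 counts in MP (median 78.5). In MA, it had 23, 1, 0, 0, 1 and 0 counts in males 1 to 6, so that 1 library held nearly all of the counts. MP was higher in 6 of 6 males and the groups did not overlap. The log2 fold change over all 6 males was 4.31 ± 1.13 (SE, edgeR, adjusted p = 0.0704) and did not pass. With 1 edgeR fit for all libraries, it was 4.27 and was called (adjusted p = 0.000896). Without male 1, it was 7.47 (edgeR, adjusted p = 0.000611), which passed both thresholds, and the pooled ratio was 235 (95% interval 64.8 to 1950, exact, counting error only) against 21.3 (14.2 to 33.2) with this animal. Among all transcripts, 0.0561% were called higher in MP of males and as many lower.

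The sex difference in the MP over MA change of *hh* turned with male 1. It was -2.35 ± 1.25 (SE) with all animals and 0.85 without male 1 (edgeR interaction, adjusted p = 1.00 in both). No transcript was called for this interaction in this edgeR fit, with 523 of 13794 tested at an unadjusted p under 0.05 and 83 called by DESeq2.

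Between the posterior regions, the difference of *hh* did not pass the test. In males, it ranged from 3.36 to 6.85 CPM in LatP, against 5.75 to 10.3 CPM in MP, and LatP was lower in 6 of 6 males. The log2 fold change was -0.49 ± 0.22 (SE, edgeR, adjusted p = 0.254). In females, LatP was lower in 4 of 5 animals, with a log2 fold change of -0.44 ± 0.26 (SE, edgeR, adjusted p = 0.494) that was 0.05 with library totals. The share called higher in LatP was 0.44% in males and 0.245% in females, and that called higher in MP was 0.114% and 0.00699%.

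Between the anterior regions, *hh* was detected in LatA and barely in MA. In females, LatA pieces held 8 to 47 counts (median 31.5), against 1 to 3 counts in MA, and the pooled level was 19.2 times as high (95% interval 9.62 to 44.8, exact, counting error only). The log2 fold change was 4.18 ± 0.47 (SE, edgeR, adjusted p = 0.00160), just short of the threshold on p, while DESeq2 (4.28) and edgeR with 1 fit for all libraries (4.19) called it. LatA was higher than MA in 5 of 5 females.

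In males, LatA pieces held 0 to 44 counts (median 30.5). The 0 was the right LatA piece of male 1, whose left LatA piece had 4 counts and whose MA piece had 23. The log2 fold change was 2.43 ± 1.09 (SE, edgeR, adjusted p = 0.990) with all males and 5.79 (edgeR, adjusted p = 0.000862) without male 1, which passed both thresholds. No transcript was called between LatA and MA when each sex was fitted by itself in edgeR (0%). At an unadjusted p under 0.05 stood 625 of 13158 tested in males and 451 of 13420 in females. DESeq2 called 13 in males and 23 in females.

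In the medial and lateral pieces alike, a bulk library cannot tell fewer *hh*-expressing cells from less *hh* RNA per cell. Levels of some transcripts of other tissues differed between regions as well. The 5 muscle transcripts, all detected in every piece, summed to 35.6 to 626 CPM in MP of males (median 241), against 5.93 to 42.4 CPM in MA (median 18.1). In females, they summed to 22.3 to 729 CPM in MP (median 360.0), against 20.1 to 654 CPM in MA (median 29.2). Their log2 fold changes in MP over MA were 2.96 to 5.03 in males (edgeR, adjusted p of 0.0125 to 0.0763). The values in females were 0.79 to 1.94 (edgeR, lowest adjusted p = 0.708). The photoreceptor transcripts *chaoptin* and *Arrestin 2* summed to 1.99 to 63.6 CPM in male and 4.71 to 34.5 CPM in female LatP pieces, against at most 2.00 and 1.17 CPM in LatA. *chaoptin* was at 0 counts in 7 of 11 MP, 13 of 22 LatA and 8 of 11 MA pieces. The blood cell transcript *prophenoloxidase 2* had medians of 5.84 CPM in LatP, 1.33 in MP, 1.53 in LatA and 0.667 in MA. Its log2 fold change in LatP over LatA was 0.83 in males and 3.20 in females (edgeR, adjusted p = 0.779 and 0.0336). The neuronal *ELAV-like* transcript had medians of 4.75 CPM in LatP, 0.543 in MP, 2.99 in LatA and 1.61 in MA. Their part in the *hh* and *ci* differences was not tested. The marker set is incomplete. Opsin, Myosin heavy chain, hemocytin, 2 synaptic genes and the epithelium and fat body lists were also planned, and no values are given for them.

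The *ci* locus showed the same posterior pattern with a higher anterior base. Reads were divided between its 3 transcripts by the counting program, and the division was uneven. Isoform X3 was a whole number of counts in 5 of 66 pieces only, whereas *hh* was in 66 of 66, and isoform X2 and the third transcript were each under 1 count in 15 of 66 pieces. In LatP of males, isoform X3 took 15.4 to 44.7% of the locus counts of a piece, isoform X2 0 to 84.6% and the third transcript 0 to 81.1%. In LatP of females, the ranges were 13.9 to 50.6% for X3, 10.7 to 72.0% for X2 and 0 to 61.4% for the third transcript. A change of 1 transcript can therefore mirror that of another, and the sum over the locus is given beside isoform X3.

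**Figure D2:**
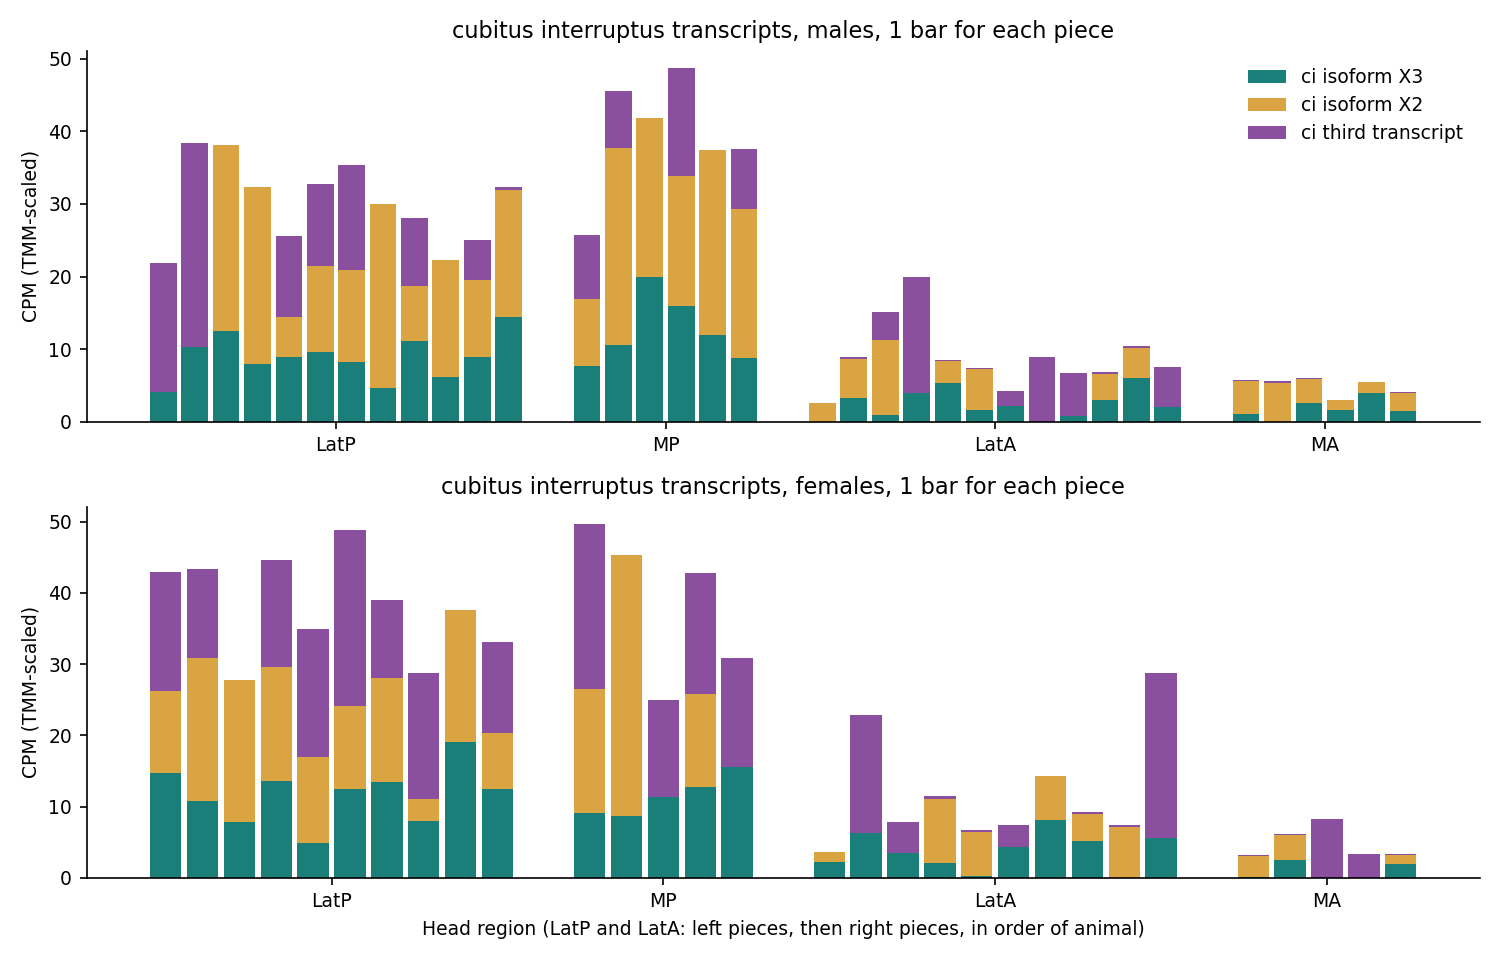
Stacked CPM of the 3 *cubitus interruptus* transcripts in each of the 66 pieces, males above and females below, with the bars of a region side by side. The height of the stack, the locus sum, varied less over animals than each single transcript in every region of both sexes except MP of females (26.7%, against 24.5% for X3), and transcripts at 0 in 1 piece carry most of the stack in another.

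Isoform X3 was higher in LatP than in LatA in 6 of 6 males and 5 of 5 females. In males, it ranged from 6.15 to 12.02 CPM in LatP (median 8.19), against 0.890 to 5.69 CPM in LatA (median 1.74). In females, it stood at 13.7, 12.1, 7.91, 16.3 and 8.65 CPM in LatP, against 3.27, 7.17, 4.37, 1.03 and 2.98 CPM in LatA. The animals did not overlap in either sex. The log2 fold changes were 1.86 ± 0.50 in males (SE, edgeR, adjusted p = 0.0258) and 1.62 ± 0.52 in females (SE, edgeR, adjusted p = 0.0914), and neither passed.

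Summed over the locus, *ci* reached 30.2 ± 3.58 CPM in LatP, against 8.96 ± 3.36 CPM in LatA of males (SD, n = 6). Without male 1, the LatA mean of males was 10.1 ± 2.23 CPM (SD, n = 5). In females, it reached 38.1 ± 6.94 CPM in LatP, against 11.97 ± 5.84 CPM in LatA (SD, n = 5). The coefficient of variation over males in LatP was 11.9% for the locus and 28.1% for X3 alone. The log2 fold change of the locus was 1.75 ± 0.22 in males (SE, edgeR, adjusted p = 4.27e-06) and 1.63 ± 0.29 in females (SE, edgeR, adjusted p = 0.00135). The male value passed the threshold on p and not that on the fold, and the female one passed both only with library totals (2.03). With transcripts summed by gene, 0.862% of genes were called higher in LatP of males and 0.515% in LatP of females, against 0.284% and 0.163% higher in LatA. Here and below, transcripts that could not be matched to a gene count as genes of their own.

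Isoform X3 also stood higher in MP than in MA in every animal. In males, it ranged from 7.76 to 19.96 CPM in MP (median 11.3), against 0 to 3.94 CPM in MA (median 1.60), with a log2 fold change of 2.83 ± 0.68 (SE, edgeR, adjusted p = 0.0490), which DESeq2 called (2.85). In females, it had 9.15, 8.75, 11.4, 12.8 and 15.6 CPM in MP, against 0.153, 2.44, 0, 0 and 2.01 CPM in MA, with a log2 fold change of 3.65 ± 1.16 (SE, edgeR, adjusted p = 0.371). In the MA pieces of females 3 and 4, where X3 had 0 counts, the third transcript held 8.23 and 3.36 CPM.

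The locus sum gave a narrower estimate. In males, it was 39.5 ± 8.04 CPM in MP, against 5.00 ± 1.18 CPM in MA (SD, n = 6), with a log2 fold change of 2.98 ± 0.21 (SE, edgeR, adjusted p = 1.70e-05) that passed both thresholds. In the fit on transcripts summed by gene, 0.147% of genes were called higher in MP of males and 0.128% lower, and 0.0284% and 0.0473% in females. The call held with every male left out in turn (log2 fold changes of 2.80 to 3.13). In females, the sum was 38.7 ± 10.4 CPM in MP, against 4.85 ± 2.27 CPM in MA (SD, n = 5), with a log2 fold change of 3.00 ± 0.34 (SE, edgeR, adjusted p = 0.00373), short of the threshold on p, which DESeq2 called (3.02). The male minus female difference in this change was -0.03 ± 0.37 (SE, edgeR interaction, adjusted p = 1.00).

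Unlike *hh*, *ci* was measured well in MA. The locus had 37 to 69 counts in the MA pieces of males and 42 to 119 in those of females, so no library was near the limit of detection. The MA piece of male 1, which held 23 counts of *hh*, had 5.76 CPM of the *ci* locus, inside the range of the other males (3.00 to 6.02). Between LatA and MA, the locus differed by a log2 fold change of 0.85 ± 0.32 in males (SE, edgeR, adjusted p = 0.860) and 1.32 ± 0.46 in females (SE, edgeR, adjusted p = 1.00). For isoform X3, these were 0.48 ± 0.90 and 2.05 ± 1.204 (SE, edgeR, adjusted p = 1.00 in both). With each male left out in turn, the change of the locus in males was 0.58 to 1.06. Between LatP and MP, the locus differed by -0.38 ± 0.14 in males (SE, edgeR, adjusted p = 0.114) and -0.04 ± 0.18 in females (SE, edgeR, adjusted p = 0.951), and isoform X3 by -0.47 ± 0.25 and 0.02 ± 0.26 (SE, edgeR, adjusted p = 0.375 and 0.991). In the gene-summed fit, 0.668% of genes in males and 0.374% in females were called in favour of LatP, 0.188% and 0.0174% in favour of MP, and 0.0185% higher in LatA than in MA of females.

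**Figure D3:**
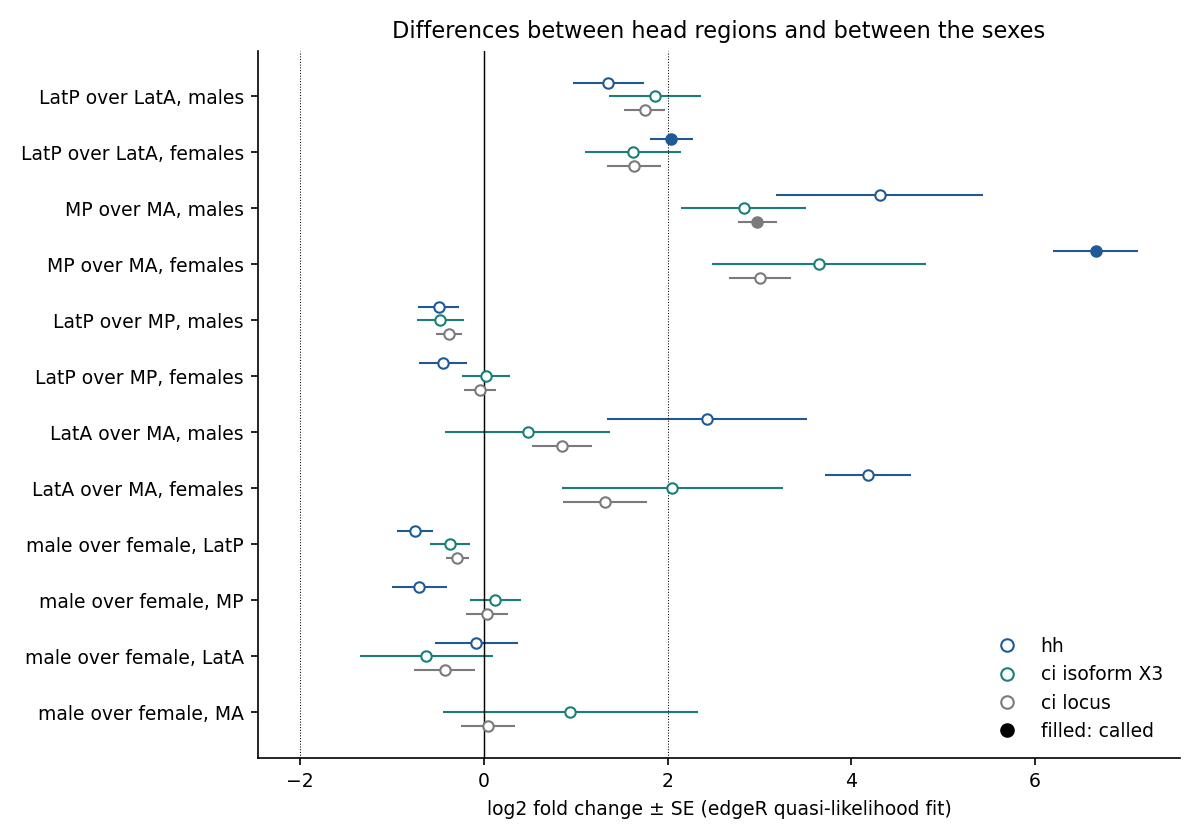
log2 fold changes ± SE of *hedgehog* (hh), *cubitus interruptus* isoform X3 and the summed *cubitus interruptus* locus for each comparison, with dotted lines at the fold threshold of 2 and filled points for those called. Posterior over anterior changes lie to the right of 0 for both genes, 3 of them called, and the sex differences lie between -0.75 and 0.94.

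Between the sexes, *hh* was lower in the LatP region of males, where the horns grow. It ranged from 3.36 to 6.85 CPM in male LatP (median 5.34), against 7.18 to 11.7 CPM in female LatP (median 8.65), and the highest male lay under the lowest female. How many of all transcripts separate the sexes in this way was not counted. The log2 fold change of *hh* was -0.75 ± 0.19 (SE, edgeR, adjusted p = 0.0130), which did not pass the thresholds. Leaving out each animal in turn kept it between -0.84 and -0.64. Over the alternatives tried, the adjusted p ranged from 9.37e-06 with library totals to 0.275 with 1 fit for all libraries, and it was 0.0910 with both sides of each larva summed (edgeR). Calls over all transcripts were 0.352% higher in males and 0.0414% higher in females. Muscle transcripts moved the same way, with a summed median of 20.2 CPM in male LatP, against 88.9 CPM in female LatP, and log2 fold changes of -2.18 to -1.34 for the 5 transcripts (edgeR, adjusted p of 0.00547 to 0.0207). The blood cell transcript *prophenoloxidase 2* had medians of 3.56 CPM in male LatP and 13.9 CPM in female LatP (log2 fold change -1.25, edgeR, adjusted p = 0.347). Their part in the *hh* difference was not tested.

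The size of this difference depends on the scaling. TMM factors were 0.720 to 1.01 in male LatP libraries and 1.103 to 1.70 in female ones. With library totals, the log2 fold change of *hh* was -1.40 ± 0.20 (SE, edgeR, adjusted p = 9.37e-06), and the median of all transcripts was -0.80, against -0.08 with TMM. Relative to that median, *hh* lay at -0.67 with TMM and at -0.61 with library totals. The calls turned likewise, with 51 transcripts higher in males and 6 higher in females with TMM, against 35 and 173 with library totals.

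In the other regions, no sex difference of *hh* passed the test. In MP, it ranged from 5.75 to 10.3 CPM in males, against 7.12 to 21.3 CPM in females (log2 fold change -0.71 ± 0.30, SE, edgeR, adjusted p = 0.599). In LatA, the log2 fold change was -0.08 ± 0.45 (SE, edgeR, adjusted p = 0.964), and 0.16 without male 1. In MA, *hh* did not pass the filter on low counts, and 10 of the 11 libraries held 3 counts or fewer. For LatA, MP and MA, edgeR fitted to each region called no transcript between the sexes (0%), while DESeq2 called 16, 43 and 25. At an unadjusted p under 0.05 stood 1918 of 13722, 1009 of 12649 and 690 of 12667 tested.

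For *ci*, no sex difference passed the test. The locus differed by -0.29 ± 0.12 in LatP (SE, edgeR, adjusted p = 0.102), which is -0.23 relative to the median of all genes, while 0.518% of genes were called higher in males and 0.0431% higher in females. With library totals, the locus differed by -0.999 (edgeR, adjusted p = 7.16e-08), or -0.20 relative to the median. In MP, males had 39.5 ± 8.04 CPM (SD, n = 6) and females 38.7 ± 10.4 CPM (SD, n = 5), a log2 fold change of 0.03 ± 0.22 (SE, edgeR, adjusted p = 0.995). It differed by -0.43 ± 0.33 in LatA and by 0.04 ± 0.29 in MA (SE, edgeR, adjusted p = 0.512 and 0.996). Isoform X3 gave -0.37 ± 0.22 in LatP, 0.12 ± 0.28 in MP, -0.63 ± 0.72 in LatA and 0.94 ± 1.39 in MA (SE, edgeR, adjusted p = 0.304, 0.999, 0.766 and 1.00). Its LatP over LatA change differed between the sexes by 0.24 ± 0.72 (SE, edgeR interaction, adjusted p = 0.993), and its MP over MA change by -0.83 ± 1.23 (SE, edgeR interaction, adjusted p = 1.00). For the locus, the LatP over LatA change differed by 0.11 ± 0.36 (SE, edgeR interaction, adjusted p = 0.963), where 1.28% of genes were called.

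In females, *hh* was higher in the left LatP piece. The left pieces had 11.9, 14.9, 7.43, 11.5 and 8.31 CPM, and the right pieces 8.76, 8.41, 6.94, 5.85 and 6.68 CPM in females 1 to 5, so the left was higher in 5 of 5. In males, the left LatP piece was higher in 2 of 6, and the LatA pieces were higher on the left in 4 of 6 males and 3 of 5 females. The *ci* locus was higher in the left LatP piece of 5 of 6 males and 3 of 5 females. This pattern was noticed after the values were seen, and the left and right difference was not tested here. The study reported no differentially expressed genes between left and right lateral pieces in either sex, at its thresholds.

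**Figure D4:**
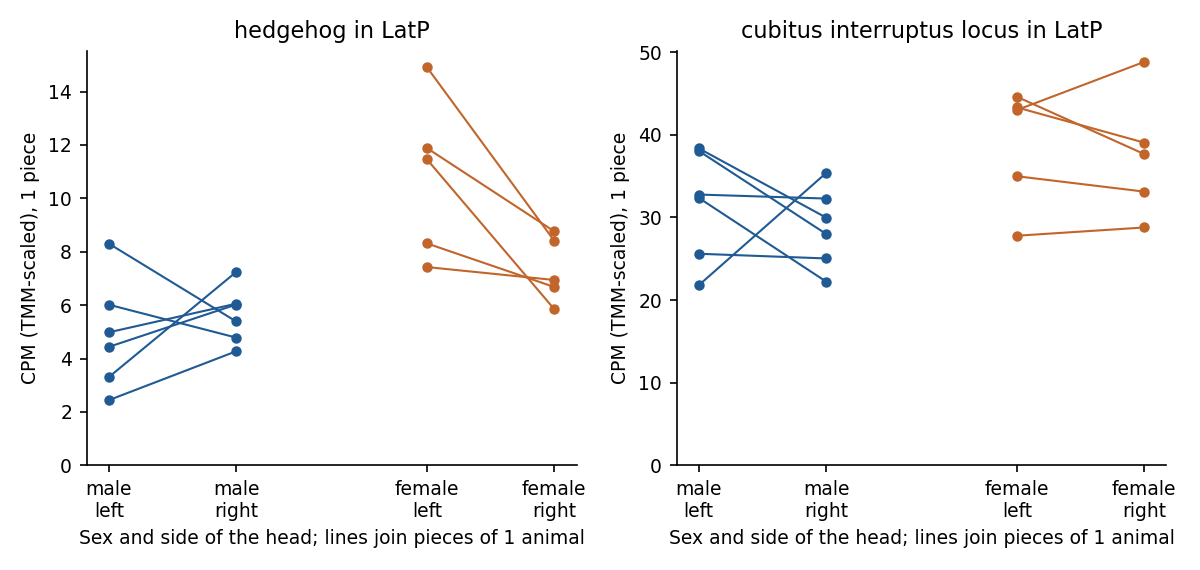
CPM of *hedgehog* (left) and of the *cubitus interruptus* locus (right) in the left and right LatP pieces, with a line for each animal. All 5 female lines for *hedgehog* run downward from the left to the right piece, whereas 4 of 6 male lines run upward.

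Of the other genes of the pathway, a name in the study's lists was found for 3 transcripts, *engrailed*, *invected* and *wingless*. *patched*, *smoothened*, *fused*, *Suppressor of fused* and *decapentaplegic* carried no name in these lists and were not analysed here. Because those names came from lists of transcripts called on these samples, their directions are not independent evidence. *engrailed* and its neighbour *invected* encode related homeodomain proteins that in *Drosophila* define posterior compartments and act upstream of *hh*. Related genes could share reads, but the expected counts of both were whole numbers in every piece.

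*invected* (XM_023054032.1) was most abundant in MP. In males, it reached 1.295 ± 0.422 CPM in LatP, 3.83 ± 1.58 CPM in MP, 0.213 ± 0.0959 CPM in LatA and 0.0591 ± 0.0746 CPM in MA (SD, n = 6). In females, it reached 1.63 ± 0.347, 3.73 ± 1.67, 0.286 ± 0.111 and 0.0152 ± 0.0341 CPM in the same regions (SD, n = 5). It rose in LatP over LatA of males, with a log2 fold change of 2.56 ± 0.44 (SE, edgeR, adjusted p = 0.000335), and without any 1 of males 2 to 6 the adjusted p was 0.00189 to 0.00692 (edgeR) and the call was lost, as it was with left and right pieces summed (edgeR, adjusted p = 0.0153). In females, the value was 2.46 ± 0.53 (SE, edgeR, adjusted p = 0.0109). In MP over MA, the changes were 5.81 in males and 7.32 in females (edgeR, adjusted p = 0.00251 and 0.0110), short of the threshold on p. DESeq2 and 1 fit for all libraries called both, with at most 2 counts in any MA piece. In LatP over MP, they were -1.53 and -1.20 (edgeR, adjusted p = 0.00609 and 0.0810). *engrailed* (XM_023054067.1) was scarce, with at most 35 counts in any piece. It averaged 1.29 ± 1.33 CPM in MP of males and 1.25 ± 0.608 CPM in MP of females, and had 0 counts in 6 of 6 male and 3 of 5 female MA pieces. Its MP over MA changes of 6.88 in males and 4.24 in females (edgeR, adjusted p = 0.0463 and 0.234) were called only by DESeq2.

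Unlike these, *wingless* (XM_023058498.1), a secreted Wnt ligand that in fly segments is made beside the *hh* cells, was highest in LatA. In LatP over LatA of males, *wingless* fell by 2.21 ± 0.31 on the log2 scale (SE, edgeR, adjusted p = 3.18e-05, and 0.00717 with left and right pieces summed), and in females its change was -1.52 ± 0.22 (SE, edgeR, adjusted p = 0.000265), short of the fold threshold. *wingless* averaged 2.84 CPM in LatP of males, against 0.0763 CPM in MP, and was called there (edgeR, adjusted p = 0.000639), a call lost without any 1 of males 1 and 3 to 6 (edgeR, adjusted p of 0.00299 to 0.00693). *hh* was at 5.27 and 7.53 CPM in these regions.

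**Figure D5:**
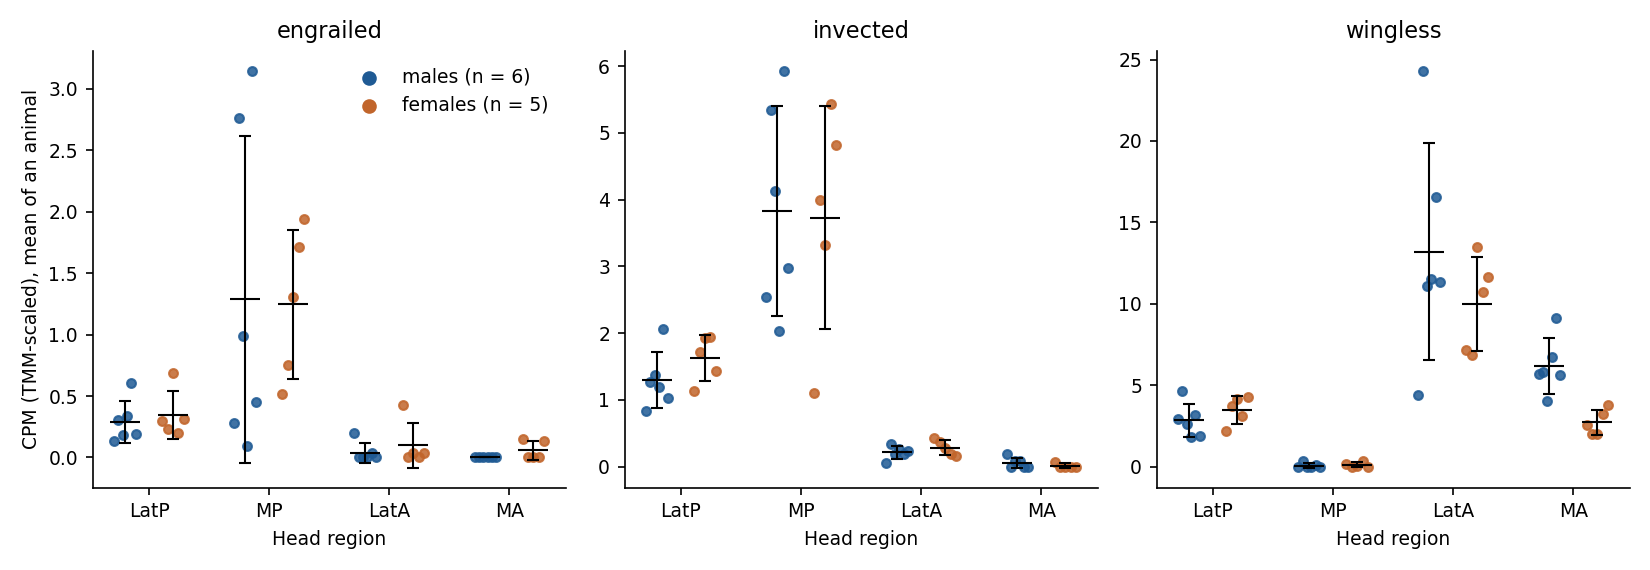
CPM of *engrailed*, *invected* and *wingless* by head region on linear axes, with 1 point for each animal (males blue, n = 6, females orange, n = 5) and black bars for mean ± SD. *engrailed* and *invected* peak in MP and are near 0 in MA, and *wingless* is highest in LatA and near 0 in MP.

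Transcripts with the most similar course were ranked over 44 animal-by-region values of log2(CPM + 1), each taken relative to the mean of its animal, among 15444 expressed transcripts (Pearson r). The values of an animal share its dissection and scaling, so the coefficients are descriptions. Nearest to *hh* stood a transcript annotated as *hairy*-like (XM_023054958.1, r = 0.93), whose fly homologue encodes a transcriptional repressor. Then came XM_023054447.1 (0.91) and XM_023051975.1 (0.90), a *caupolican*-like homeobox transcript of the Iroquois family (XM_023044165.1, 0.89) and XM_023055119.1 (0.89). The 3 given by identifier alone have no name in the sources used here.

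The *hairy*-like transcript also ranked first for *ci* isoform X3 (r = 0.90). It was followed by 2 *mab-21* transcripts (XM_023052984.1, 0.90, and XM_023052985.1, 0.89), the *caupolican*-like transcript (0.89) and XM_023063483.1 (0.89). The *hairy*-like transcript averaged 16.1 CPM in LatP and 17.6 CPM in MP of males, against 6.83 CPM in LatA and 5.02 CPM in MA. As a ratio of the highest to the lowest mean, this was a narrower range than that of *hh*. Isoform X3 ranked 21 among the neighbours of *hh* (r = 0.85), *invected* ranked 13 (0.87), isoform X2 172 (0.70) and *engrailed* 289 (0.64). The third *ci* transcript ranked 430 (0.60). Among the neighbours of isoform X3, isoform X2 ranked 307 (0.64) and the third transcript 619 (0.55). For *wingless*, the coefficient with *hh* was -0.54.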

How the data were processed

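The authors trimmed reads with Trimmomatic 0.32 and counted them per RefSeq transcript with RSEM 1.3.0 and Bowtie2 2.3.2, per the labels, and deposited expected counts, which need not be whole because reads shared by isoforms are divided. Identifiers were matched without version to RefSeq genes of a later assembly, IU_Otau_3.0 (15104 of 23725), so no coordinates are given. Where transcripts were summed by gene, those without a match stayed single and were counted as genes. Counts were rounded and tested with edgeR 4.0.16 (R 4.3.3): TMM, quasi-likelihood F-test and Benjamini-Hochberg adjustment over all transcripts above 1 CPM in 2 or more of the compared libraries. As in the study, left and right pieces entered as replicates although they share an animal, and calls needed an adjusted p under 0.001 with a log2 fold change beyond 2 in either direction, while interactions needed an adjusted p under 0.05. Standard errors were derived from the F statistic. The tests were also run on simulated data with independent libraries, which cannot check the effect of pieces that share an animal. Pieces of 1 larva are paired by dissection (mean correlation of their deviations 0.18 in males and 0.27 in females), so the animal was a block in an alternative. The study made its calls with DESeq2, while calls here come from edgeR unless DESeq2 is named. In MP over MA of females, DESeq2 called 134 transcripts, against 4 in edgeR. DESeq2 1.42.0 and other scalings, filters and left-out animals were tried as alternatives. Members and lists were chosen with earlier results of these data known: named genes were the members, other *ci* transcripts, pathway genes with a name in the study's lists and the 5 transcripts nearest to each member.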

Additional observations from a re-analysis of the deposited data

Results flagged for a closer look

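One value stood apart from its group by Dixon's test at 95%, which was applied to *hh*, *ci* isoform X3 and the *ci* locus in each sex and region, 24 groups of animals in all. *hh* in the MA region of male 1 was at 2.14 CPM, whereas the other 5 males lay between 0 and 0.0916 CPM. The gap made up 0.957 of the range of the group. Chance flags about 1 in 20 groups. The same library was nearest to LatA in its whole profile, and the right LatA piece of this male had 0 counts of *hh*.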

How the results depend on the processing

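Among 209 alternative values for *hh*, 185 kept direction and call, and the same was true of 212 of 227 for *ci* isoform X3 and 157 of 183 for the *ci* locus. Most of these comparisons were not called to begin with. For *hh*, 12 values lost a call, 7 gained one and 5 turned direction. The lost calls all fell on LatP over LatA and MP over MA of females, which had 14 and 12 alternatives. For *hh* in LatP over LatA of females, the log2 fold change was 1.997 with RLE size factors and with DESeq2, 2.01 with left and right summed (adjusted p = 0.00467, edgeR), 2.02 with a replicate block as well (adjusted p = 0.0159), and 1.95 to 2.13 with an animal left out. For *hh* in MP over MA, the replicate block gave 6.62 in females (6.28 to 6.92 with an animal left out), and in males 1 fit for all libraries gave 4.27 and leaving out 2 libraries of male 1 (right LatA and MA) gave 7.40, both called. Leaving out a male gave 3.93 to 7.47, called only without male 1. For *hh* in LatA over MA, the range without an animal was 2.06 to 5.79 in males, and DESeq2 (4.28), 1 fit (4.19) and transcripts summed by gene (4.18) gave calls in females. On its own, the block changed no other call of *hh* or *ci*. Directions near 0 turned as follows. For *hh*: LatP over MP of females 0.048 with library totals, male over female in LatA 0.044 without the 2 libraries of male 1 (-0.21 to 0.16 without an animal), and the sex difference in MP over MA 0.78 (-2.73 to 0.85). For isoform X3: LatP over MP of females -0.034 (RLE), -0.0048 (no filter), -0.037 (DESeq2), -0.044 (summed by gene), -0.037 (replicate block) and -0.14 to 0.21 without an animal, male over female in MP -0.23 with library totals (-0.074 to 0.25), and the sex difference in LatP over LatA -0.26 (-0.12 to 0.67). In MP over MA of males, isoform X3 was called with DESeq2 (2.85) and summed by gene (2.98). For the locus, in alternatives chosen after seeing the data, as was the use of library totals in tests: LatP over LatA of females 2.03 (library totals, called), MP over MA of females 3.02 (DESeq2, called), LatP over MP of females 0.44 (library totals), male over female in MP -0.24 (-0.092 to 0.14), in MA -0.13, -0.00018 without the library of male 1 and -0.074 to 0.32, and the sex differences -0.43 (-0.10 to 0.37) in LatP over LatA and 0.017 (-0.43 to 0.20) in MP over MA. Levels in female LatP were 12.4 CPM for *hh* and 16.05 CPM for isoform X3 with library totals. With library totals, the median of all transcripts was 0.47 for LatP over MP of females and -0.32 for male over female in MP. The causes were not tested.

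Counts of calls over all transcripts moved widely over the alternatives, library totals and the summing of left and right pieces included: 108 (19 to 178) in LatP over LatA of males and 62 (0 to 201) of females, 14 (0 to 174) and 4 (0 to 134) in MP over MA, 73 (6 to 189) and 36 (0 to 177) in LatP over MP, 0 (0 to 13) and 0 (0 to 23) in LatA over MA, 57 (0 to 208) between the sexes in LatP, and 155 (1 to 3596) for the sex difference in LatP over LatA. With 1 to 3 counts of *hh* in each female MA library, and 0 or 1 in those of males 2 to 6, the fitted folds against MA depend on very few counts.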

Other observations

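In the LatA pieces of female 2, whose profiles stood nearest to LatP (left) and MA (right), *hh* was at 2.88 and 2.45 CPM, the highest of the 5 females on each side. The coefficient of variation of the *ci* locus over animals was 37.5% in LatA of males and 48.8% in LatA of females, and without male 1 that of males was 22.2%.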
